A study of Homo sapiens with 12 samples.

Results

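Interferon-stimulated genes are the genes that cells switch on when interferon reaches them, and 43 of them were followed in HK-2 cells exposed to 2,8-dihydroxyadenine (DHA), a purine of low solubility whose crystals damage kidney tubules in people who lack the enzyme adenine phosphoribosyltransferase. They are a list of gene names out of 57527 genes measured. The rule of the list holds no threshold on a measured value, but the list was chosen with earlier results of these data known. HK-2 is an established line of human proximal tubule epithelium. All cells were grown in serum-supplemented medium and sampled after 72 h. The groups were medium alone (control), 60 ug/ml DHA, 120 ug/ml DHA and 240 ug/ml DHA, with 3 libraries of poly(A) RNA in each, 12 in all. The series title states the question as what DHA does to epithelial integrity and to the phenotype of kidney cells. A single immortalised line was used, without the leukocytes of a kidney. No carrier control is described. The labels do not state that replicate libraries are separate cultures, so each p-value measures the spread between these libraries alone, which may be technical.

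Type I interferons bind the receptor pair IFNAR1 and IFNAR2, whose kinases JAK1 and TYK2 activate STAT proteins. A complex that holds STAT2 and IRF9 then binds the interferon-stimulated response element (ISRE). Interferon gamma acts through IFNGR1 and IFNGR2 and leads to binding at the gamma-activated site (GAS). Tubule epithelium carries these receptors, and many of the induced proteins block virus entry, degrade viral RNA or tag proteins, while others feed back on the pathway.

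Levels below are the deposited normalized signal of each gene, summed over its transcripts. A fold change is a difference of group means of log2(signal + 1), which understates changes of low genes. A gene counts as called, and is said to rise or fall, at a Benjamini-Hochberg adjusted p under 0.05 from limma over the 16789 genes that reached a signal of 1 in at least 3 libraries. Read depth is unknown, since the table keeps no counts. The library totals ran from 791808 to 969479 at 240 ug/ml, against 1143850 to 1228979 in control, and the effect of setting totals equal is given beside the results and in the account of scaling. Replicate 3 at 60 ug/ml stood apart from its group on the first principal component, at 5.6 beside -12.6 and -20. Of 11 proximal tubule markers 4 passed the signal filter, among them SLC5A2, GGT1 and PAX8, while LRP2 and SLC22A6 were listed at 0 in all 12 libraries. All 5 epithelial markers passed. Of 10 leukocyte markers only CSF1R passed, 5 were listed at 0 throughout, and the list summed to 11.5 to 13.2 at 240 ug/ml against 10 to 10.5 in control. No endothelial marker reached 1.

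At 240 ug/ml, 17 of the 37 interferon-stimulated genes tested fell and 2 rose. The falls were led by the membrane proteins IFITM1 and IFITM3 and the GTPase GBP2. The counts include UBD, which passed the filter through its control libraries alone, and XAF1, which passed it through treated libraries alone. The share that fell was 45.9%, beside 23.5% of all genes tested, and the share that rose was 5.41%, beside 19.7% of all genes. The members' median log2 fold change was -0.34, against -0.03 over all genes. Because the list was chosen with earlier results of these data known, these shares are no independent test. Of 35 other interferon-induced genes tested, 10 (28.6%) fell and 11 (31.4%) rose at this dose. At 120 ug/ml 16 fell and 1 rose, with 20.8% of all genes falling and 15.9% rising, and medians of -0.33 and -0.03. At 60 ug/ml 7 fell and 1 rose, with 10.0% of all genes falling and 8.89% rising, and medians of -0.21 and -0.03. In these bulk samples, fewer cells expressing a gene and less RNA per cell cannot be told apart. The 3 doses share the control libraries, so their counts are not separate evidence. The 7 that fell at 60 ug/ml became 3 without replicate 1 of that dose (IFI16, GBP2 and UBD) and 4 without its replicate 3 (GBP1 in addition).

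**Figure D1:**
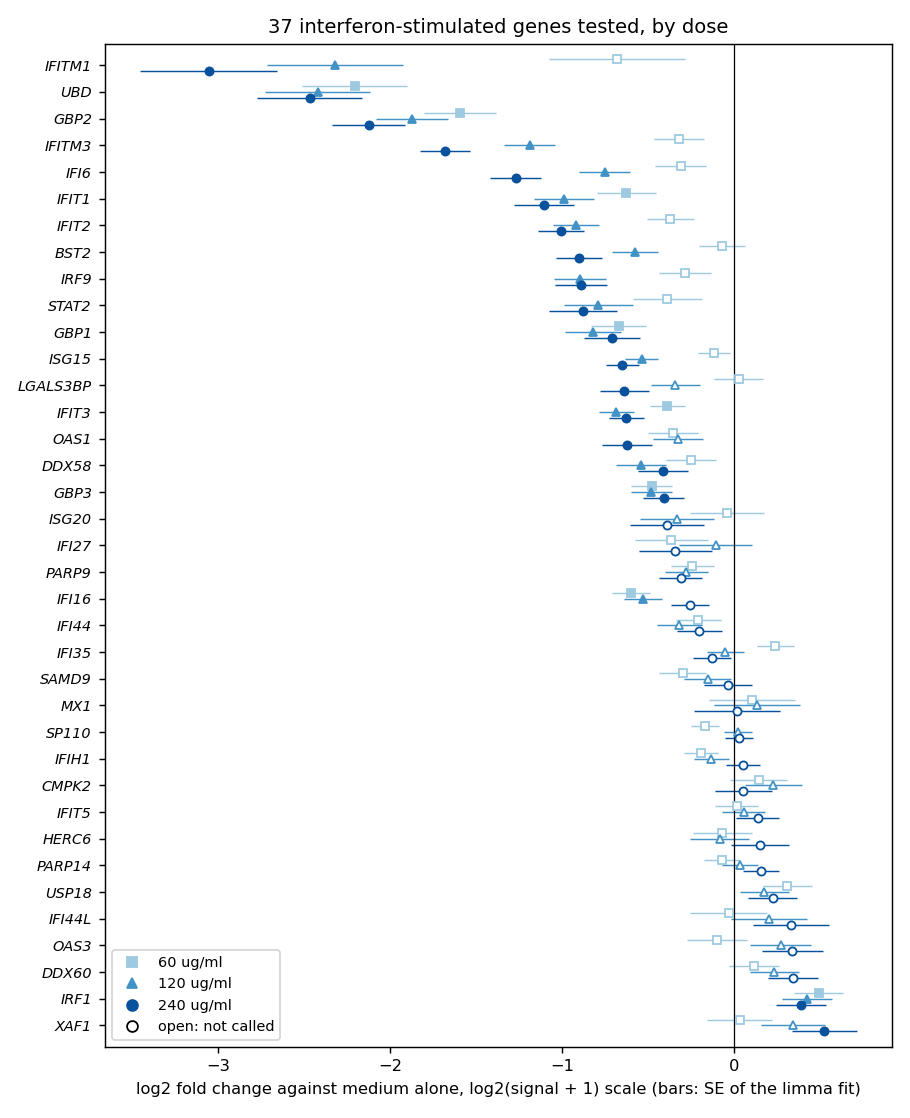
Log2 fold changes against medium alone (x axis) of the 37 interferon-stimulated genes tested (y axis, the lowest at 240 ug/ml on top), with squares for 60, triangles for 120 and circles for 240 ug/ml DHA, bars for the SE of the limma fit and open symbols for values not called. The values at 240 ug/ml run from -3.06 for IFITM1 to 0.52 for XAF1.

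The calls of the members followed several dose patterns. GBP1, GBP2, GBP3, IFIT1, IFIT3 and UBD fell at all 3 doses. STAT2, IRF9, DDX58, IFITM1, IFITM3, BST2, IFIT2, ISG15 and IFI6 fell at 120 and 240 ug/ml but were not called at 60 ug/ml. OAS1 and LGALS3BP were called lower at 240 ug/ml alone, and IFI16 at 60 and 120 ug/ml alone. All treated libraries of OAS1 and of IFI16 nevertheless lay below all controls, as did those of STAT2, IRF9, DDX58, IFIT2 and IFI6. IRF1 rose at every dose and XAF1 at 240 ug/ml. The remaining 17 tested members were called at no dose. Set directly against 60 ug/ml, the 240 ug/ml group was lower in 9 members and higher in IFI16, beside 13.1% of all genes lower and 11.7% higher. Those 9 were IRF9, IFITM1, IFITM3, BST2, IFIT2, ISG15, IFI6, LGALS3BP and IFI35, so between these doses the fall of GBP1, GBP2, GBP3, IFIT1, IFIT3 and UBD was not called to go further. In 12 members the group mean was lower at each step from control up to 240 ug/ml, and in 3 it was higher at each step. The 12 include ISG20 and PARP9, called at no dose, and UBD, which passed the filter through control alone. The share of all genes with such an order was not computed, so these counts are no result about the members. Any difference among the 4 groups was called for 18 of 37 members (48.6%), beside 42.7% of all genes.

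Of the 43 members, 32 had a signal of at least 1 in all 12 libraries, 37 passed the filter and 6 did not. The 6 were IRF7, IFITM2, OAS2, OASL, TRIM22 and SAMD9L. UBD passed through its control libraries alone and so could only come out lower. XAF1 reached 1 in libraries at 120 and 240 ug/ml only, where it is high, and so could only come out higher at 240 ug/ml. Across the tested members, all 3 libraries at 240 ug/ml lay below all 3 control libraries in 19 and above them in 4, beside 28.7% and 24.2% of all genes. At 120 ug/ml this held for 19 and 2 members, beside 27.3% and 21.7% of genes, and at 60 ug/ml for 17 and 3, beside 20.3% and 16.2%.

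Promoters are shown for 6 members with different outcomes, taken from RefSeq on GRCh38.p14 and running from 250 bases before the start to 50 after it. Capitals mark matches to an ISRE core, searched as GAAANNGAAA and its reverse complement TTTCNNTTTC, or to a GAS core, searched as TTCNNNGAA, which reads the same on both strands. IFITM1, IFITM3, IFI6 and IFIT1 fell and hold ISRE cores, OAS3 holds 2 cores and was not called, and UBD fell and holds neither motif. In IFITM1 the GAS match and the second ISRE match overlap, and they form 1 run of capitals.
IFITM1: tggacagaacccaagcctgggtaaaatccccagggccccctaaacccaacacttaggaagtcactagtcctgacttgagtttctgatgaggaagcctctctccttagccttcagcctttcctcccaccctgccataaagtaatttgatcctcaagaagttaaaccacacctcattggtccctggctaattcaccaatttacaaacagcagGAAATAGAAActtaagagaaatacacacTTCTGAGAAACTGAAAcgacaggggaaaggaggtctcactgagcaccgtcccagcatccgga
IFITM3: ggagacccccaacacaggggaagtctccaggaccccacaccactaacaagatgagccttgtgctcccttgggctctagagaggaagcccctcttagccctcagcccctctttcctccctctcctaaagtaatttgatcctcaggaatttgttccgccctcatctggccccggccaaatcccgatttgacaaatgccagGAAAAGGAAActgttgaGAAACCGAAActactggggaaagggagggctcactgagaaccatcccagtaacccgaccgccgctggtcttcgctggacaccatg
IFI6: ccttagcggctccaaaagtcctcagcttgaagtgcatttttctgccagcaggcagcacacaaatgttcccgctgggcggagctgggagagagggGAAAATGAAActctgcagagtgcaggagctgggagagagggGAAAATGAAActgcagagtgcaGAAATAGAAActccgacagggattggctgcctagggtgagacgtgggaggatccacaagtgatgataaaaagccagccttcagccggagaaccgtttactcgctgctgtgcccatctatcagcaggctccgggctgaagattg
IFIT1: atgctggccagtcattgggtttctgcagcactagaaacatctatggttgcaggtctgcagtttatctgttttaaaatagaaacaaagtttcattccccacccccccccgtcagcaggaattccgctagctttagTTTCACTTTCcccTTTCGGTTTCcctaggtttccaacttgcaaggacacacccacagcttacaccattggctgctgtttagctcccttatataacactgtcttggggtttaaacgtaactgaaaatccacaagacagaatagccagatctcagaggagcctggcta
OAS3: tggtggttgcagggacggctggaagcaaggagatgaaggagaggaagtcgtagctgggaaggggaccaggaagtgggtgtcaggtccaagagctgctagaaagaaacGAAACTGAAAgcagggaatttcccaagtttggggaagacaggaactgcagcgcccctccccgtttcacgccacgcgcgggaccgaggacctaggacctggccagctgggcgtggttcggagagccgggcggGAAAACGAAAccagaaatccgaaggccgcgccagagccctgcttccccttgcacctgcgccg
UBD: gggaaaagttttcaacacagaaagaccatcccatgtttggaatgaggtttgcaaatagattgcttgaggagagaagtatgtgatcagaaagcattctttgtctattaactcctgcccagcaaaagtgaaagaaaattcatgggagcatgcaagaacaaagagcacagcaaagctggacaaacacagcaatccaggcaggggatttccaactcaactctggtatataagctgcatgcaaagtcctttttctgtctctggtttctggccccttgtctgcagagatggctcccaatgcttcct
These windows are chr11:313790-314089 on the plus strand for IFITM1, chr11:320811-321110 on the minus strand for IFITM3 and chr1:27672143-27672442 on the minus strand for IFI6. Those of IFIT1 and OAS3 are chr10:89392373-89392672 and chr12:112938224-112938523, both on the plus strand, and that of UBD is chr6:29559683-29559982 on the minus strand. IFI6 has 3 ISRE cores, of which 2 lie in a repeated stretch of the same letters.

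Of the 43 members, 35 had a RefSeq promoter here. An ISRE core was present in 21 of the 35 (60%), beside 3.57% of 35116 promoters of the same length, and a GAS core in 10 (28.6%), beside 7.66%. Only the first promoter listed for a member was searched, while the comparison counts every promoter listed, so the 2 shares differ in kind. A window can also lie away from the annotated gene start, as for IFI16 (window from 159008741, gene from 158999968), counted as without the core. The ISRE core was found in 10 of 15 members that fell at 240 ug/ml, in 11 of 17 that were not called, and in 0 of 2 that rose. The 21 tested members with the core had a median log2 fold change of -0.39, and the 13 without it one of -0.26, with ranges of -3.06 to 0.34 and -2.47 to 0.52. A match is a description of the letters in the window and not a binding site.

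The interferon ligands were listed at or near 0 in every group. Of 9 interferon genes, IFNA1, IFNK, IFNG and IFNL1 were listed at 0 in all 12 libraries, and the highest value of the other 5 was 0.5. None passed the filter, so no fold change is given.

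Receptor chains and a kinase of the pathway fell in part. IL10RB, a receptor chain shared by interleukin 10 and interferon lambda, averaged 11.8 ± 1.32 at 240 ug/ml against 21.1 ± 0.815 in control (SD, n = 3 each), a log2 fold change of -0.80. IFNAR2 fell by 0.73 on the log2 scale at that dose, to 23.8 ± 1.80 against 40.2 ± 2.75 in control, while IFNAR1 averaged 11.5 ± 1.86 against 10.6 ± 0.916 and was not called. IFNGR2 and IFNGR1, the receptor of interferon gamma, fell by 0.79 and 0.48 at 240 ug/ml. JAK1, a kinase bound to both receptors, fell by 0.31 and STAT3 by 0.30, while TYK2 was not called at any dose. With library totals set equal, IL10RB (-0.39), IFNGR2 (-0.37) and IFNAR2 (-0.32) were still called lower at 240 ug/ml, and IFNAR1 (0.50) and TYK2 (0.46) were called higher. IFNGR1 (-0.068), JAK1 (0.12) and STAT3 (0.11) were then not called, and the last 2 changed sign.

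STAT2 and IRF9, subunits of the complex that binds the ISRE, fell together at 120 and 240 ug/ml. STAT2 (chromosome 12, 56341597 to 56360155, minus strand, GENCODE positions on GRCh38) had signals of 30.3, 30.2 and 27.4 in control, 27.1, 26.6 and 14.9 at 60, 16.7, 20.3 and 13.2 at 120, and 16.2, 15.8 and 14.4 at 240 ug/ml. IRF9, the subunit that contacts DNA, had 17.6, 17.4 and 20.2 in control, 17.3, 16.6 and 11.4 at 60, 9.6, 9.5 and 9.1 at 120, and 11.5, 9.1 and 8.0 at 240 ug/ml. For both genes replicate 3 at 60 ug/ml lay well below the others of its group, and all treated libraries lay below all controls. At 60 ug/ml the gap was narrow, 27.1 against 27.4 for STAT2 and 17.3 against 17.4 for IRF9, and neither was called. At 240 ug/ml the log2 fold change was -0.88 for STAT2 (SE 0.20, limma adjusted p = 0.00428) and -0.89 for IRF9 (SE 0.15, adjusted p = 0.000754). The fall of STAT2 was not called with equal library totals, whereas IRF9 stayed called, at -0.49. IRF9 was also lower at 240 than at 60 ug/ml, by 0.60 (SE 0.15, adjusted p = 0.0155), a call lost without replicate 1 or 2 at 60 ug/ml or replicate 3 at 240 ug/ml.

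IRF1, a transcription factor that acts early in the interferon gamma response, went the other way. Its signals were 18.4, 18.3 and 19.2 in control, 28.1, 23.0 and 29 at 60, 25.2, 28.9 and 22.2 at 120, and 23.2, 31.2 and 20.7 at 240 ug/ml. All 9 treated libraries lay above all 3 controls, with no order among the doses. The log2 fold changes were 0.49, 0.42 and 0.39 at 60, 120 and 240 ug/ml, with limma adjusted p-values of 0.0347, 0.0382 and 0.0476. These lie close to the threshold, and the call at 240 ug/ml was kept in 9 of 22 alternatives. All 3 calls were lost when any single control library was left out. SP110, a nuclear body protein, ranged from 12.7 to 15.6 at 240 ug/ml and from 13.1 to 14.5 in control and was not called. IRF7, which amplifies interferon production, stayed at 0.3 to 0.8 in all libraries and was not tested.

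**Figure D2:**
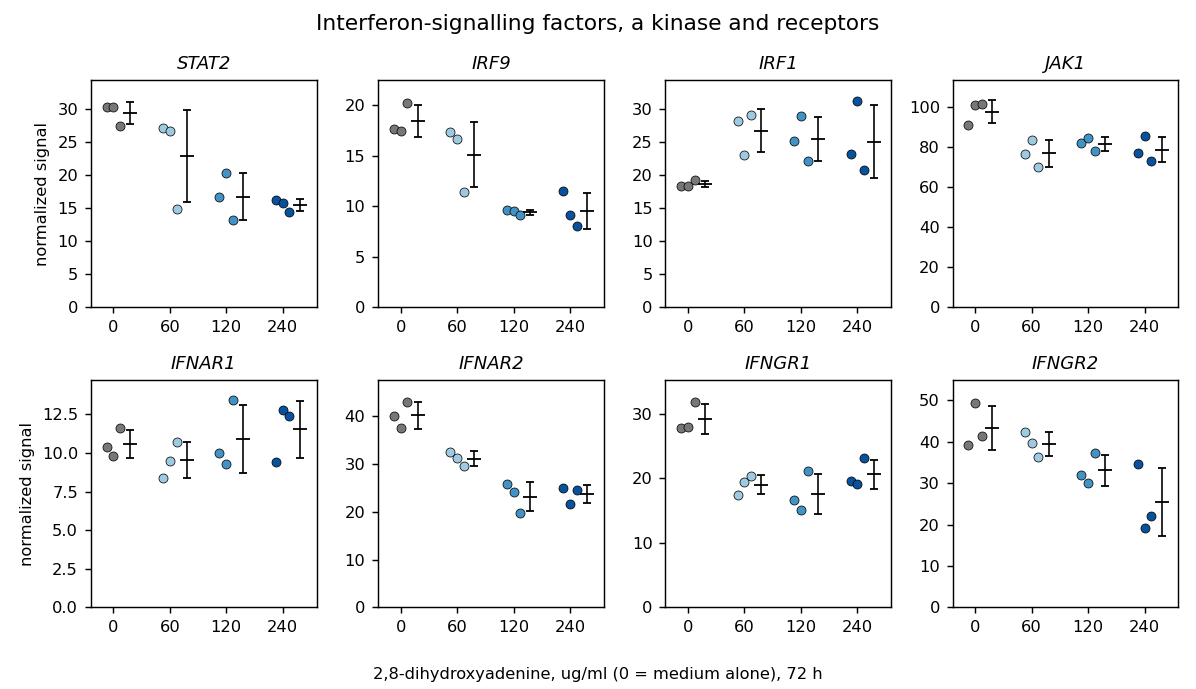
Normalized signal (y axis, from 0, own scale per panel) of the factors STAT2, IRF9 and IRF1, the kinase JAK1 and 4 receptor chains by DHA dose (x axis, 0 for medium alone), with points for the 3 libraries of a group and a dash and bar for their mean ± SD. STAT2, IRF9, JAK1, IFNAR2 and IFNGR1 lie below control at 120 and 240 ug/ml, IRF1 lies above it, and IFNAR1 overlaps it.

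Among the 4 sensors of nucleic acids, DDX58 (RIG-I, a sensor of viral RNA) fell at 120 ug/ml, by 0.54 on the log2 scale (SE 0.15, limma adjusted p = 0.0126), and at 240 ug/ml, by 0.41 (SE 0.15, adjusted p = 0.0383). Its means were 2.63 ± 0.551 at 240 ug/ml and 3.83 ± 0.757 in control, and the call at 240 ug/ml was kept in 13 of 22 alternatives. It was lost without replicate 1 or 2 of either group, and the call at 120 ug/ml without control replicate 1, and neither held with equal library totals. IFI16, a sensor of DNA, had its lowest means at the middle doses. It had 59.3, 54.2 and 54.5 in control, 34.0, 44.5 and 32.3 at 60, 39.7, 37.6 and 37.9 at 120, and 42.5, 49.7 and 48.0 at 240 ug/ml. All treated libraries lay below all controls, but the fall was called at 60 ug/ml (log2 fold change -0.60, limma adjusted p = 0.00396) and 120 ug/ml (-0.53, 0.00294) and not at 240 ug/ml. With equal library totals the call at 120 ug/ml was lost, at -0.17. The level at 240 ug/ml was higher than at 60 ug/ml by 0.34 (SE 0.11, adjusted p = 0.0402), a call kept in 3 of the 12 fits that each left out 1 library, and lost without any control library among others. DDX60, a helicase linked to RNA sensing, had 3.2, 2.6 and 3.6 in control, 3.5, 3.8 and 3.1 at 60, 4.1, 4.4 and 3.1 at 120, and 3.8, 4.9 and 4.0 at 240 ug/ml. Its 240 ug/ml libraries did not overlap control, but it was not called. IFIH1 (MDA5, the sensor of long double-stranded RNA) ranged from 4.6 to 6.0 at 240 ug/ml and from 4.8 to 5.3 in control, overlapping it.

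The IFITM proteins, which sit in membranes and block virus entry, and BST2 (tetherin), which holds budding virus on the cell surface, had the lowest median change of the 8 role groups of members. All 3 tested members of this group fell at 240 ug/ml, with a median log2 fold change of -1.68. IFITM1 (chromosome 11, 313506 to 315272, plus strand) had signals of 29.4, 34.0 and 24.2 in control, 19.8, 33.7 and 8.0 at 60, 4.6, 6.4 and 4.2 at 120, and 4.2, 1.8 and 2.2 at 240 ug/ml. Its 60 ug/ml libraries spread from near the highest control to near the 120 ug/ml level, and the dose groups above it did not overlap control. The log2 fold changes were -2.32 at 120 ug/ml (SE 0.40, limma adjusted p = 0.00101) and -3.06 at 240 ug/ml (SE 0.40, adjusted p = 0.000134). IFITM3 (chromosome 11, 319669 to 327537, minus strand) had 74.4, 81.5 and 65.3 in control, 62.4, 68.0 and 47.5 at 60, 30.6, 34.0 and 30.4 at 120, and 26.8, 19.2 and 21.2 at 240 ug/ml. It overlapped control at 60 ug/ml alone, and its libraries at 240 ug/ml all lay below those at 120 ug/ml. It fell by 1.19 on the log2 scale at 120 ug/ml (SE 0.15, limma adjusted p = 0.00014) and by 1.68 at 240 ug/ml (SE 0.15, adjusted p = 1.49e-05).

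BST2 (chromosome 19, 17402939 to 17405648, minus strand) had signals of 361.7, 355.7 and 292.9 in control, 319.6, 329.4 and 308 at 60, 209.7, 231.8 and 233.1 at 120, and 216.6, 144.4 and 183.3 at 240 ug/ml. It overlapped control at 60 ug/ml and lay below it at both higher doses, with log2 fold changes of -0.58 at 120 ug/ml (SE 0.13, limma adjusted p = 0.00587) and -0.90 at 240 ug/ml (SE 0.13, adjusted p = 0.000303). IFITM2 was listed at 0.6, 0.5 and 0.8 in control and at 0 in all libraries at 120 and 240 ug/ml. In the annotation its span (chromosome 11, 307631 to 315272) covers IFITM1, and the IFITM genes are close copies, so the division of reads among them is uncertain. The 3 IFITM genes summed to 25.1 ± 5.22 at 240 ug/ml against 104 ± 12.9 in control (SD, n = 3 each, exact two-sided permutation p = 0.10, the smallest that 3 against 3 can give). At 60 ug/ml the sum was 79.8 ± 23.2, with an exact permutation p of 0.20. With equal library totals IFITM1, IFITM3 and BST2 were also called lower at 240 ug/ml, with log2 fold changes of -2.69, -1.26 and -0.47. At 120 ug/ml BST2 was then at -0.21 and not called.

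**Figure D3:**
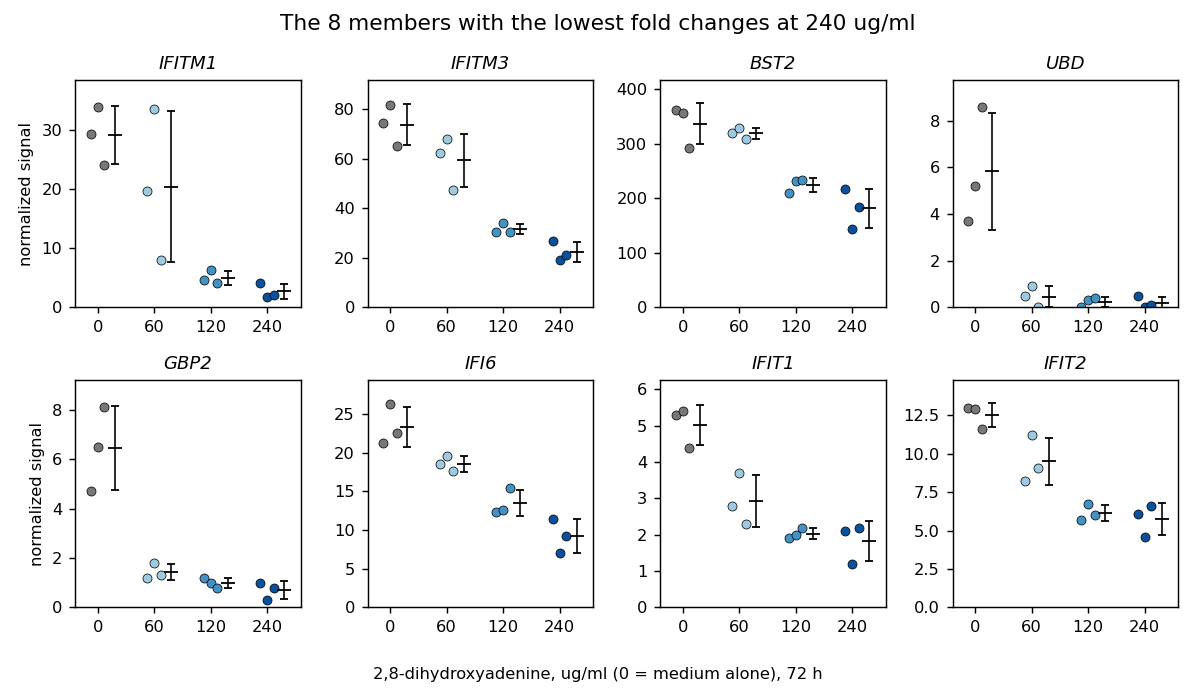
Normalized signal (y axis, from 0, own scale per panel) by DHA dose (x axis, 0 for medium alone) for the 8 members with the lowest fold changes at 240 ug/ml, with points for the 3 libraries of a group and a dash and bar for their mean ± SD, drawn down to 0 at most. GBP2 and UBD are low from 60 ug/ml on, while IFITM1, IFITM3, BST2 and IFI6 are lowest at 240 ug/ml.

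The guanylate-binding proteins GBP1, GBP2 and GBP3, GTPases that attack the compartments of intracellular pathogens and lie side by side on chromosome 1, were at their low level from the lowest dose on. GBP1 had signals of 12.5, 12.5 and 16.6 in control, 7.6, 8.2 and 9.0 at 60, 6.7, 6.7 and 8.8 at 120, and 7.1, 6.9 and 10.4 at 240 ug/ml. GBP2 (89106132 to 89150456, minus strand) had 4.7, 6.5 and 8.1 in control, 1.2, 1.8 and 1.3 at 60, 1.2, 1.0 and 0.8 at 120, and 1.0, 0.3 and 0.8 at 240 ug/ml. GBP3 had 12.5, 12.5 and 15.4 in control, 8.6, 10.7 and 8.8 at 60, 10.7, 8.0 and 9.4 at 120, and 10.0, 9.9 and 9.6 at 240 ug/ml. In all 3 genes every treated library was below every control library. GBP2 changed most, by -1.59, -1.87 and -2.13 at 60, 120 and 240 ug/ml, with limma adjusted p-values of 0.000921, 8.57e-05 and 2.92e-05. GBP1 fell by 0.67, 0.82 and 0.71 at these doses, with adjusted p-values of 0.0146, 0.00233 and 0.00428. GBP3 fell by 0.48, 0.48 and 0.41, with adjusted p-values of 0.0168, 0.00836 and 0.0157, and its call at 240 ug/ml was lost without control replicate 3. At 60 ug/ml the calls of GBP1 and GBP3 were lost without that library or without replicate 1 of the dose, and that of GBP3 also without replicate 3 of the dose. The call of GBP3 at 60 ug/ml was also lost with the GC trend subtracted. With equal library totals GBP2 alone of the 3 stayed called at 240 ug/ml, at -1.85. On that scale it was also the only one called at 60 ug/ml, at -1.41, with GBP1 at -0.48 and GBP3 at -0.29. At 120 ug/ml GBP1 (-0.49) and GBP2 (-1.60) stayed called. The summed GBP signal was 18.7 ± 1.91 at 240 ug/ml against 33.8 ± 5.56 in control (SD, n = 3 each, exact permutation p = 0.10). MX1, a GTPase that traps viral nucleocapsids, ranged from 0.9 to 2.2 at 240 ug/ml and from 0.9 to 2.6 in control. Its leading transcript, with 59.2% of the signal at 240 ug/ml and 49.0% in control, is annotated as a retained intron and not as a coding form.

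The IFIT proteins bind foreign RNA and hinder its translation, and 3 of the 4 fell. IFIT1 (chromosome 10, 89392546 to 89406486, plus strand) had signals of 5.3, 5.4 and 4.4 in control, 2.8, 3.7 and 2.3 at 60, 1.9, 2.0 and 2.2 at 120, and 2.1, 1.2 and 2.2 at 240 ug/ml. IFIT2 had 13.0, 12.9 and 11.6 in control, 8.2, 11.2 and 9.1 at 60, 5.7, 6.7 and 6.0 at 120, and 6.1, 4.6 and 6.6 at 240 ug/ml. IFIT3 had 24.5, 25.7 and 22.0 in control, 17.3, 21.3 and 16.1 at 60, 13.9, 15.3 and 14.5 at 120, and 15.5, 14.2 and 15.9 at 240 ug/ml. In each of these genes every treated library lay below every control library, with the 60 ug/ml group between control and the higher doses by its mean. At 240 ug/ml IFIT1 fell by 1.11 (SE 0.17, limma adjusted p = 0.000433), IFIT2 by 1.01 (SE 0.13, adjusted p = 0.000154) and IFIT3 by 0.63 (SE 0.10, adjusted p = 0.000569). With equal library totals IFIT3 was at -0.22 at this dose and not called. At 60 ug/ml IFIT1 fell by 0.63 (limma adjusted p = 0.0264) and IFIT3 by 0.39 (adjusted p = 0.0221), and each call was kept in 15 of 22 alternatives. Both were lost without replicate 1 or 3 of that dose, or without control replicate 1 or 2. Both were also lost with equal library totals and with the GC trend subtracted. The call of IFIT1 was lost without the filter as well, and that of IFIT3 with only the 2 groups compared. IFIT5, the fourth, had 6.7, 6.4 and 6.4 in control, 6.0, 5.9 and 8.0 at 60, 6.4, 6.2 and 7.9 at 120, and 7.0, 6.7 and 8.1 at 240 ug/ml. It overlapped control at every dose and was not called. The sum of the 4 genes was 30.1 ± 3.10 at 240 ug/ml against 48.1 ± 3.24 in control (SD, n = 3 each, exact permutation p = 0.10).

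The oligoadenylate synthetases, enzymes that respond to double-stranded RNA, did not move together. OAS1 had signals of 3.0, 2.7 and 2.8 in control, 2.2, 1.7 and 2.1 at 60, 1.7, 2.5 and 2.0 at 120, and 1.8, 1.2 and 1.5 at 240 ug/ml. OAS3 had 7.7, 8.7 and 8.5 in control, 7.2, 6.4 and 9.7 at 60, 7.8, 12.3 and 11 at 120, and 9.0, 10.8 and 12.7 at 240 ug/ml. OAS1 at 240 ug/ml lay below control in every library and fell by 0.62 (SE 0.15, limma adjusted p = 0.00492), a call lost with equal library totals. OAS3 at 240 ug/ml lay above control in every library, with a log2 fold change of 0.34 that was not called. OAS2 and OASL did not exceed 0.3 in any library. The OAS genes summed to 12.5 ± 1.77 at 240 ug/ml against 11.4 ± 0.436 in control (SD, n = 3 each, exact permutation p = 0.50). ISG20, an exonuclease of RNA, and CMPK2, a mitochondrial nucleotide kinase, ranged from 1.7 to 2.4 at 240 ug/ml and from 1.5 to 3.8 in control and were not called at any dose.

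UBD (FAT10), a ubiquitin-like protein that marks its targets for the proteasome, was near 0 in every treated group. Its signals were 3.7, 5.2 and 8.6 in control, 0.5, 0.9 and 0 at 60, 0, 0.3 and 0.4 at 120, and 0.5, 0 and 0.1 at 240 ug/ml. No treated library reached 1, and every control library exceeded 3. The log2 fold changes were -2.21, -2.42 and -2.47 at 60, 120 and 240 ug/ml, with an SE of 0.31. The added 1 in the log scale compresses this difference, since treated values lie below it. Because UBD passed the filter through its control libraries alone, its calls are no support for a direction. UBD lies at chromosome 6, 29555515 to 29559925, minus strand.

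ISG15, the ubiquitin-like protein joined to others in infected cells, had 33.8, 38.2 and 34.1 in control, 30.2, 33.8 and 33.4 at 60, 23.8, 21.5 and 27.0 at 120, and 23.7, 22.1 and 20.7 at 240 ug/ml. Both higher doses lay below control in every library, and ISG15 fell by 0.54 at 120 ug/ml (SE 0.094, limma adjusted p = 0.00111) and by 0.65 at 240 ug/ml (SE 0.094, adjusted p = 0.000256), calls that were lost with equal library totals. USP18, which removes ISG15 and dampens receptor signalling, had 1.1, 1.5 and 1.7 in control, 2.1, 1.9 and 2.0 at 60, 1.8, 1.7 and 1.7 at 120, and 2.0, 2.0 and 1.5 at 240 ug/ml. HERC6, a ligase for ISG15 in mouse, had 5.0, 5.6 and 6.2 in control, 4.7, 5.0 and 6.2 at 60, 5.0, 4.1 and 6.8 at 120, and 5.2, 6.2 and 7.7 at 240 ug/ml. Both overlapped control at 240 ug/ml and were not called. TRIM22 had 0.7, 1.1 and 1.4 in control and at most 0.4 in any treated library, and it missed the filter because only 2 libraries reached 1.

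Among the 11 remaining effectors, 10 passed the filter, and 2 (20%) fell and 1 (10%) rose at 240 ug/ml, at or below the 23.5% and 19.7% of all genes. IFI6, a small membrane protein that limits the replication of flaviviruses, had signals of 21.3, 26.3 and 22.5 in control, 18.5, 19.6 and 17.6 at 60, 12.4, 12.6 and 15.4 at 120, and 11.5, 7.0 and 9.2 at 240 ug/ml. No group overlapped another, and IFI6 fell by 0.75 at 120 ug/ml (SE 0.15, limma adjusted p = 0.00229) and by 1.27 at 240 ug/ml (SE 0.15, adjusted p = 7.27e-05). It lies at chromosome 1, 27666061 to 27672218, minus strand. LGALS3BP, a secreted glycoprotein that binds galectins, averaged 266 ± 35.6 at 240 ug/ml against 413 ± 32.8 in control (SD, n = 3 each). It fell by 0.64 (SE 0.14, adjusted p = 0.00369), a call lost with equal library totals. XAF1, a pro-apoptotic partner of XIAP, had 0.5, 0.4 and 0.5 in control, 0.6, 0.5 and 0.4 at 60, 1.0, 1.0 and 0.6 at 120, and 0.7, 1.2 and 1.5 at 240 ug/ml. Its libraries at 240 ug/ml all lay above control, and it was called higher by 0.52 (SE 0.19). That call was kept in 9 of 21 alternatives and lost when any single control library was left out. Because XAF1 passed the filter through treated libraries alone, the call is no support for a direction. A transcript annotated for nonsense-mediated decay carried 88.2% of the XAF1 signal at 240 ug/ml and 64.3% in control.

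PARP14, an ADP-ribosyltransferase, had 15.3, 14.5 and 16.2 in control, 13.3, 14.6 and 15.8 at 60, 15.6, 17.6 and 14 at 120, and 15.9, 19.4 and 16.4 at 240 ug/ml. IFI44L had 3.5, 3.3 and 4.7 in control, 2.6, 4.2 and 4.5 at 60, 3.3, 5.2 and 5.3 at 120, and 5.0, 3.8 and 6.6 at 240 ug/ml. Both overlapped control at every dose and were not called. PARP9, a partner of the ligase DTX3L, SAMD9, IFI27, IFI35 and IFI44 were not called against control at any dose, with log2 fold changes of -0.34 to -0.04 at 240 ug/ml. IFI35 was lower at 240 than at 60 ug/ml, by 0.37 (SE 0.11, limma adjusted p = 0.029) and its highest mean, 27.1 ± 1.95 (SD, n = 3), was at 60 ug/ml. That call was lost in 5 of the 12 fits that each left out 1 library, including without any library of the 60 ug/ml group. SAMD9L stayed at or below 0.6 in all libraries.

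Other interferon-induced genes, which are not among the 43, were split in direction. Of 46 such genes 35 were tested, and at 240 ug/ml 10 fell (28.6%, beside 23.5% of all genes) and 11 rose (31.4%, beside 19.7%), with a median log2 fold change of 0.09 against -0.03. The antigen-processing subunit PSMB9 fell by 0.82, the death ligand TNFSF10 by 0.77, the lysosomal reductase IFI30 by 0.76, the scramblase PLSCR1 by 0.65 and the restriction factor TRIM5 by 0.59. TRIM25, a ligase that acts on RIG-I, rose to 51.3 ± 4.25 at 240 ug/ml against 24.1 ± 3.73 in control (SD, n = 3 each), which is 1.06 on the log2 scale (SE 0.11, limma adjusted p = 3.13e-05). MX2, APOL6, TRIM14 and EIF2AK2, the kinase PKR that halts translation on double-stranded RNA, rose by 0.91, 0.72, 0.69 and 0.55. Of 14 genes that lead to interferon production 1 (7.14%) fell and 2 (14.3%) rose, both shares below those of all genes, namely TANK, an adaptor of TBK1, at -0.25, CGAS, the cytosolic DNA sensor, at 0.75, and the kinase TBK1 at 0.56. Of 13 negative regulators 2 (15.4%) fell and 3 (23.1%) rose. The phosphatase PTPN6 and the nuclease TREX1 fell, by 0.77 and 0.49, and PTPN11, NLRC5 and IRF2BP2 rose, by 0.71, 0.64 and 0.40. With equal library totals 2 of the 35 genes fell (TNFSF10 and IFI30) and 21 (60%) rose. In the lists for interferon production and negative regulation 0 fell, and 8 (57.1%) and 10 (76.9%) rose, with TANK at 0.17. On that scale 42.9% of all genes rose.

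Which members were called depended on how libraries were scaled, while no member called at 240 ug/ml as deposited changed sign. Setting all library totals equal raised the log2 fold change of a gene by a median of 0.39 over all genes for 240 ug/ml, and by 0.34 and 0.19 for 120 and 60 ug/ml. On that scale 9 members fell and 12 rose at 240 ug/ml, beside 9.12% and 42.9% of all genes, and the members' median was -0.01 against 0.33 over all genes. The 9 were all among the 17 that fell as deposited, namely IRF9, IFITM1, IFITM3, BST2, GBP2, IFIT1, IFIT2, UBD and IFI6. Members at a fold change below 0 numbered 19 on that scale and 24 as deposited. Of the 12 that rose, 10 were not called as deposited. These were SP110, IFIH1, DDX60, IFIT5, OAS3, USP18, HERC6, PARP14, IFI35 and IFI44L, from 0.28 for IFI35 to 0.73 for OAS3. IRF1 (0.80) and XAF1 (0.70) were called higher on both scales. At 120 ug/ml 10 fell and 6 rose, beside 8.21% and 36.3% of all genes, and at 60 ug/ml 3 fell and 2 rose, beside 3.91% and 16.6%. For 240 against 60 ug/ml 7 were lower and 5 higher, beside 5.44% and 23.4%. Relative to the median of all genes, the members' median was lower by both scalings. Setting totals equal multiplies each library by a constant, which shifts members and all genes nearly alike. The second scaling is therefore no separate support for that position. With no filter on low values, all 43 members could be tested, and 18 fell and 1 rose at 240 ug/ml, beside 11.0% and 8.61% of 34520 genes. At 120 ug/ml 18 fell and 0 rose (9.36% and 6.49% of genes), and at 60 ug/ml 8 fell and 0 rose (3.74% and 3.30%). For 240 against 60 ug/ml 8 were lower and 0 higher (4.53% and 4.15%).

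**Figure D4:**
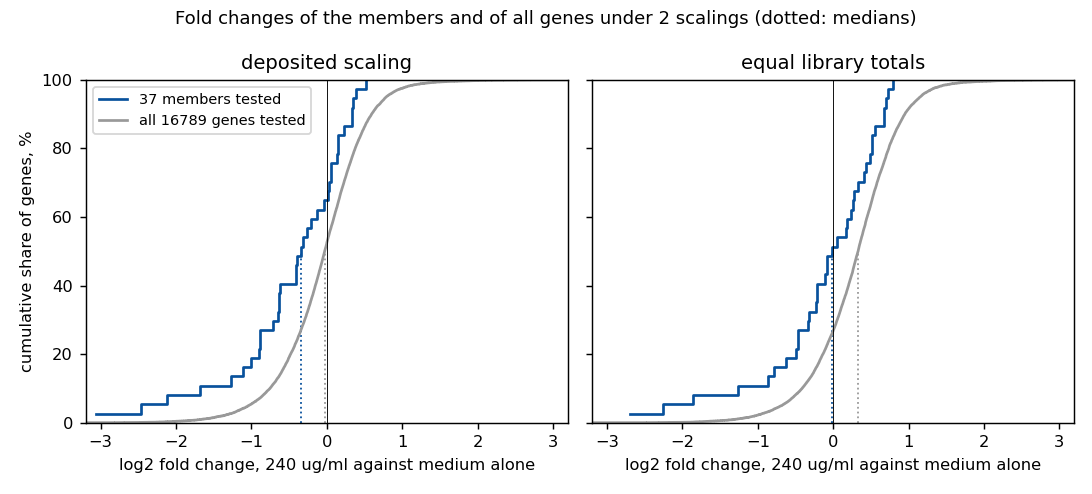
Cumulative share of genes (y axis, %) by log2 fold change at 240 ug/ml against medium alone (x axis), for the 37 members tested (blue) and all 16789 genes tested (gray), as deposited on the left and with equal library totals on the right, with dotted lines at the medians. The members' curve lies to the left of the curve of all genes at the median in both panels, -0.34 beside -0.03 and -0.01 beside 0.33. Setting totals equal shifts both curves nearly alike.

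Genes listed as fibroblast markers were lower in the treated groups as well, in this single cell line. The 6 fibroblast markers, of which COL1A1, DCN and LUM passed the filter and COL1A2 was listed at 0 throughout, summed to 247 to 342 in control, 114 to 217 at 60, 66.8 to 76.4 at 120 and 38.8 to 65.9 at 240 ug/ml. The 5 epithelial markers summed to 312 to 382 at 240 ug/ml against 429 to 469 in control. Their part in the members' results was not tested. The members that were tested had a median GC content of 45.5%, against 49.1% over all genes tested.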

How the data were processed

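mRNA was measured in 12 HK-2 libraries, 3 in each of 4 groups taken from the sample titles. Per the labels' protocols, poly(A) RNA was copied with dUTP marking and read in pairs on a DNBSEQ instrument. The build was GRCh38.p14, per the submitters' processing notes. The sources used here name no aligner, quantifier, strand setting or annotation release. The deposited table holds a normalized signal for 267165 transcripts, to 1 decimal. No source names its unit, so levels were not compared between genes. A strand error was not checked, and antisense or overlapping genes and close paralogs may share reads.

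Transcripts were matched to GENCODE release 29 (75.7%) and summed per gene, covering 93.8% to 94.7% of each library's total, and no pair of libraries was identical. The design had assumed counts, so limma-trend (limma 3.58.1, R 4.3.3) was fitted to log2(signal + 1) in 1 model over the 12 libraries, with a mean per group and no covariates, on 16789 genes with a signal of at least 1 in at least 3 libraries. P-values are two-sided. Tested on simulated data (240 ug/ml against control, all 16789 genes), the fit found 84% of log2 falls of 1 and 52% of falls of 0.5. DDX58 is the older symbol of RIGI. Some genes of the lists are not reported here.

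The 43 genes and the other lists were chosen with earlier results of these data known. Values in every library are given for the 8 lowest and 8 highest members at 240 ug/ml and for tested IFITM, GBP, IFIT and OAS genes, with fold changes for called members, and for pathway genes the 5 largest called changes in each direction. STAT2, IRF9, IFI16, ISG15, TRIM22 and IFITM2 were also given in full, chosen after their values were seen. Alternatives were pseudocounts of 0.1 and 0.5, no filter, equal library totals, quantile normalization, protein-coding transcripts alone, GC and length trends, the replicate number as a block, only the 2 groups compared, and each library left out in turn.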

Additional observations from a re-analysis of the deposited data

How the results depend on the processing

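Setting library totals equal gave 9 lower and 12 higher at 240 ug/ml, 10 lower and 6 higher at 120 ug/ml, 3 lower and 2 higher at 60 ug/ml, and 5 higher for 240 against 60 ug/ml, and TANK turned to 0.17 at 240 and 0.069 at 120 ug/ml. Counts of rising members were small and moved with other choices. Without the filter they were 1 at 240, 0 at 120, 0 at 60 and 0 for 240 against 60 ug/ml. For 240 ug/ml against control the count was 1 with protein-coding transcripts alone, 1 with the GC trend removed and 0 with only the 2 groups fitted. For 60 ug/ml it was 0 with the GC trend and 2 with the length trend removed. For 240 against 60 ug/ml it was 2 with quantile normalization (beside 13% of all genes), protein-coding transcripts or the length trend. It was 0 there with the GC trend or only the 2 groups. With the GC trend removed, 19 members fell at 240, 17 at 120 and 5 at 60 ug/ml, where 7 fell as deposited. Of those 7, GBP3, IFIT1 and IFIT3 were lost. Fold changes of all genes at 60 ug/ml correlated with GC content at 0.26. With the replicate number as a block, 0 members rose at 240 ug/ml and 2 for 240 against 60 ug/ml, and 16 fell at 240 ug/ml. Same-numbered libraries correlated at -0.025 to 0.236 (6 of 18 over 0.1, 9 of 12 libraries closest to their own number). The main fit did not take the numbers as pairs, since the labels give replicate numbers but name no pairing. Whether libraries of the same number share a batch was not tested. Leaving out each library in turn gave 16 to 18 lower and 0 to 2 higher at 240 ug/ml, 16 to 17 lower and 0 to 1 higher at 120 ug/ml, 3 to 9 lower and 0 to 1 higher at 60 ug/ml, 7 to 11 lower and 0 to 2 higher for 240 against 60 ug/ml, and 16 to 20 with any difference among groups. The cause of these changes was not tested. Shares of all genes called were not computed for the trend, block, protein-coding, 2-group and leave-out fits. The counts of members from those fits therefore stand without a background. The signal keeps no depth, so the precision of genes near 1, such as UBD, XAF1 and MX1, is unknown.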
